A study of Mus musculus with 4 samples.

Results

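Chloride secretion in the colon was followed through 9 genes: the channels Cftr, Ano1 and Best2, the basolateral cotransporter Slc12a2, the potassium channels Kcnn4 and Kcnq1, and the guanylin signalling genes Guca2a, Guca2b and Gucy2c. Each gene was found by its symbol in the platform's probe annotation, among probe sets that carry a single symbol, and all 9 had 1 such probe set. They are 9 of 19946 genes on the array with a named probe set, and 9 of the 12527 genes that reached a log2 intensity of at least 6 on their highest array. All 9 were above log2 6 on every array, the lowest value being 7.52. All values are log2 of the deposited linear intensities, so a difference of 1 is 2-fold, and levels of different genes, read by different probes, were not set against each other.

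The study measured RNA from colonic epithelial cells of C57BL/6 mice aged 6 to 8 weeks and matched for sex, on Affymetrix Mouse Gene 1.0 ST arrays. The 4 groups were DKO (Bmi1ΔIEC Mel18ΔIEC), Bmi1ΔIEC, Mel18ΔIEC and WT, with 1 array each. Bmi1 and Mel18 (gene symbol Pcgf2) encode related subunits of Polycomb repressive complexes, which modify chromatin at silenced genes. All 4 groups received the same regimen for colitis-associated cancer: 10 mg/kg of the carcinogen azoxymethane, then 3.5% dextran sulfate sodium, an agent that injures the colonic epithelium, in the drinking water for 5 days beginning 5 days after the injection. Cells were collected on day 12, so no group here is untreated. The epithelium was shaken off colon pieces with EDTA and no cell sorting is described. The sources used here do not give the Cre driver, the deleted exons or the number of mice behind each array. With 1 array per genotype there is no replicate check, and every difference below is a difference between arrays with no test.

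In the colonic crypt, chloride enters the cell across the basolateral membrane through the sodium, potassium and chloride cotransporter NKCC1 and leaves into the lumen mainly through CFTR, while basolateral potassium channels keep the membrane voltage that drives this exit. The peptides guanylin and uroguanylin, secreted by the epithelium itself, bind the receptor guanylate cyclase C on the luminal side, which raises cyclic GMP and so favours chloride and bicarbonate secretion and limits sodium uptake. In the colon the secretory machinery is best known from the crypts, and guanylin from differentiated cells of the upper crypt and surface.

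The guanylin gene Guca2a and the uroguanylin gene Guca2b are neighbours on chromosome 4, with 0 genes between them in the RefSeq gene table (GRCm38.p6). The levels of Guca2a spanned 3.24-fold over the arrays and those of Guca2b 1.26-fold. Their promoters are shown for that contrast, as the 250 bases before each transcription start in the RefSeq promoter table, read 5′ to 3′ on the gene's own strand. Promoters were matched for 5 of the 9 genes (Cftr, Kcnn4, Ano1, Guca2a and Guca2b). Guca2a lies on the plus strand, with this window at chr4:119637482-119637731, and Guca2b on the minus strand, with its window at chr4:119658946-119659195. Capitals mark matches to a motif of HNF1, an epithelial transcription factor family, or to a motif of the GATA factors.
Guca2a: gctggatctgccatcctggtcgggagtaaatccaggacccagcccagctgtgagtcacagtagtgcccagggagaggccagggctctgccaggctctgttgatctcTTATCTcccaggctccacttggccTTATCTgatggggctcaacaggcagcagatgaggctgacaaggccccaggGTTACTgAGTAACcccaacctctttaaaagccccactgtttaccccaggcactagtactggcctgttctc
Guca2b: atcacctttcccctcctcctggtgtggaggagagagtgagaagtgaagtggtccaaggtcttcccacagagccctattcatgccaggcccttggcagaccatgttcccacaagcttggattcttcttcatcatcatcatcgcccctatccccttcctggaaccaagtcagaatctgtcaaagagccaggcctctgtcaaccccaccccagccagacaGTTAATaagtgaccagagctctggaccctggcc
The Guca2a window held the HNF1 motif GTTANT at 70 to 65 bases before the start, and again on the opposite strand at 63 to 58 bases. It also held the GATA motif AGATAA on the opposite strand at 144 to 139 and at 120 to 115 bases before the start. The Guca2b window held GTTANT at 33 to 28 bases before the start and no AGATAA. Over 32851 RefSeq promoters cut to the same length, 22.6% held GTTANT and 9.99% held AGATAA on either strand, so neither match is rare. The TATA box TATAAA was searched on both strands as well and is held by 12.4% of promoters. So were the motif TTTATG of the CDX factors, held by 10.8%, and a further GATA motif, TGATAA, held by 7.94%. The cyclic AMP response element TGACGTCA is held by 1.55%. These 4 were not in either window, and none of the 6 motifs was in the windows of Cftr, Kcnn4 or Ano1. The Kcnn4 window, chr7:24370013-24370262, lies inside the span of its gene, which begins at 24369826. The Ano1 window, on the minus strand, ends at 144738823, inside a gene span that ends at 144752026. Neither window thus precedes the outermost start of its gene. The motifs were chosen with these sequences in view, and a match is a match of letters only.

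The DKO array stood apart from the others, which bears on every value below that involves it. Its correlation over the 12527 analysed genes was 0.878 to 0.906 with the other 3 arrays, which correlated with each other at 0.978 to 0.982. The probe sets of the deleted genes do not check the labels. Bmi1 read 7.64 on DKO, 7.43 on Bmi1ΔIEC, 6.999 on Mel18ΔIEC and 7.25 on WT. Pcgf2 read 6.81, 6.72, 6.84 and 6.96 in the same order. Bmi1 was thus higher on the arrays with its deletion than on the others, and Pcgf2 was lowest on Bmi1ΔIEC. Probe sets of this array type cover whole transcripts and the deleted exons are not given, and the part of this in these values was not tested. Epithelial identity was clear on all 4 arrays: Vil1, a microvillus protein, read 11.33 to 11.54, and Muc2, the main colonic mucin, 12.84 to 13.20. The summed intensity of 17 leukocyte markers was 17490 on DKO and 2486 to 7495 on the other arrays, and that of 12 small bowel enterocyte markers was 13003 on DKO and 3163 to 4171 elsewhere. The WT array alone carried 9 seminal vesicle transcripts at a median of log2 9.60, against 4.05 to 4.51 elsewhere, a list chosen after its values were seen. Since the cells were measured in bulk, fewer cells of a type and less RNA per cell cannot be told apart in any result below.

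**Figure D1:**
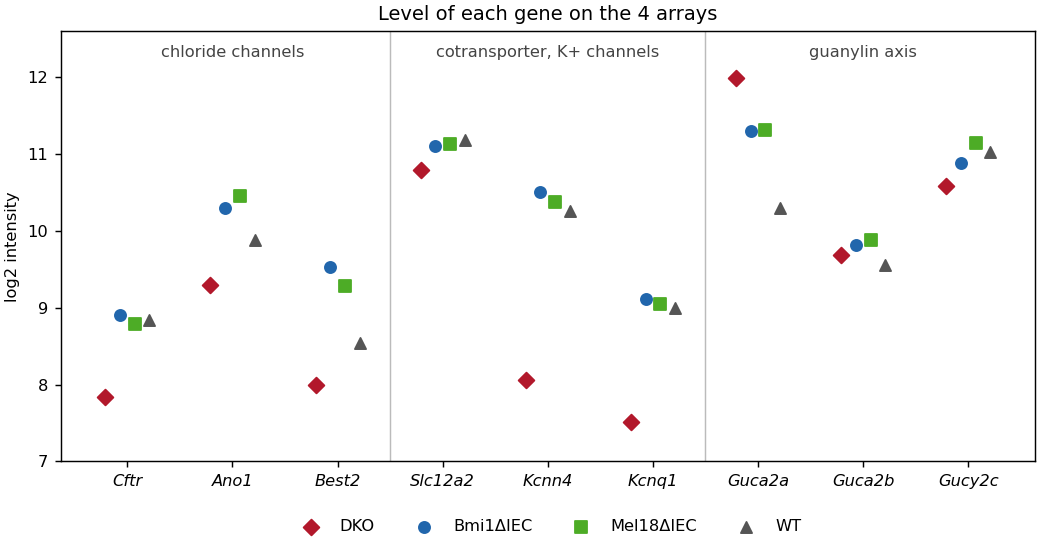
Log2 intensity of each of the 9 genes (vertical axis) on the 4 arrays, 1 point per array, in panels for chloride channels, the cotransporter with the potassium channels, and the guanylin axis. Kcnn4 is at 8.05 on DKO and 10.25 to 10.51 on the other arrays, Guca2a is highest on DKO (11.99) and lowest on WT (10.30), and Guca2b lies between 9.55 and 9.89 on all 4.

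Among the apical and basolateral chloride channels, all 3 were lowest on the DKO array, but they differed in what the single mutants showed. Cftr, the cyclic AMP and cyclic GMP regulated channel of the luminal membrane that is mutated in cystic fibrosis, read 7.84 on DKO, 8.91 on Bmi1ΔIEC, 8.79 on Mel18ΔIEC and 8.84 on WT. The 3 arrays other than DKO lay within 0.12 of each other, and DKO was 0.96 below the lowest of them. DKO differed from WT by -1.01 (2.01-fold lower) and from the mean of the single mutants by -1.02 (2.02-fold lower), both just past 2-fold. Under cyclic loess scaling and other alternatives the first of these ranged from -1.08 to -0.89, so Cftr does not stay past 2-fold.

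Ano1, a calcium-activated chloride channel also known as TMEM16A, read 9.29 on DKO, 10.29 on Bmi1ΔIEC, 10.46 on Mel18ΔIEC and 9.88 on WT. Both single mutants were thus above WT, by 0.42 and 0.58, and DKO was below WT by 0.58. The difference of DKO from the mean of the single mutants was -1.08, or 2.12-fold, and ranged from -1.14 to -0.90 over the alternatives. Ano1 is also the standard marker of interstitial cells of Cajal, the pacemaker cells of the gut wall. Kit, a receptor used to mark those cells, read 7.98, 7.88, 7.68 and 7.58 on DKO, Bmi1ΔIEC, Mel18ΔIEC and WT. The summed intensity of the 8 markers of those cells and of smooth muscle was 1379 on DKO, 918 on Bmi1ΔIEC, 774 on Mel18ΔIEC and 1073 on WT. Gjc1, another marker of the pacemaker cells, was under log2 6 on every array. Acta2, a smooth muscle gene, was the brightest of these markers on DKO, at 8.95, so the sum does not follow the pacemaker cells alone. The part of either cell type in the Ano1 values was not tested.

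Best2, a bestrophin found on the basolateral side of colonic goblet cells and known for its part in bicarbonate secretion, read 7.99 on DKO, 9.54 on Bmi1ΔIEC, 9.29 on Mel18ΔIEC and 8.54 on WT. Best2 was highest on the single mutants, with Bmi1ΔIEC 1.99-fold and Mel18ΔIEC 1.68-fold above WT. Of 12527 genes, 0.918% had a larger absolute difference from WT on the Bmi1ΔIEC array and 1.98% on the Mel18ΔIEC array. DKO was below WT by 0.55 (1.46-fold) and differed from the mean of the single mutants by -1.42 (2.67-fold lower). Goblet cell markers gave no common order. The summed intensity of 15 of them, to which bright genes such as Muc2 add most, was 50606 on DKO, 39840 on Bmi1ΔIEC, 38471 on Mel18ΔIEC and 43140 on WT. The median of their log2 differences was 0.22 for DKO against WT and 0.35 for DKO against the mean of the single mutants. At 2-fold, 1 was higher and 1 lower in DKO than in WT. The medians for Bmi1ΔIEC and Mel18ΔIEC against WT were -0.09 and -0.15. Creb3l1, a transcription factor among these markers, read 9.40, 10.32, 10.35 and 10.26 on DKO, Bmi1ΔIEC, Mel18ΔIEC and WT. Ern2, a stress sensor of mucus-secreting cells, read 9.10, 9.54, 9.56 and 9.36 in the same order. Both were lowest on DKO and highest on the single mutants, as Best2 was. These 2 were named after their values were seen and go against the direction of the list's median differences. Better known goblet markers had another order: Muc2, Tff3, Spdef, Atoh1, Zg16, Spink4 and Clca1 were highest on DKO. On both single mutants each of them was lower than on WT. The part of goblet cells in the Best2 values was not tested.

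The cotransporter and the potassium channels were lowest on DKO too, by very different amounts. Slc12a2, which encodes NKCC1, read 10.79 on DKO, 11.10 on Bmi1ΔIEC, 11.13 on Mel18ΔIEC and 11.19 on WT. The whole range was 1.32-fold, and 48.8% of all analysed genes had a larger absolute difference between DKO and WT. That difference, -0.40 as deposited, was -0.20 after cyclic loess scaling.

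Kcnn4, the calcium-activated potassium channel KCa3.1, which recycles potassium at the basolateral membrane when calcium-raising agonists drive secretion, showed the widest range of the 9 genes. It read 8.05 on DKO, 10.51 on Bmi1ΔIEC, 10.38 on Mel18ΔIEC and 10.25 on WT, which are linear intensities of 266, 1458, 1333 and 1222. DKO was alone in being low, and the other 3 arrays spanned 0.25. DKO differed from WT by -2.20 (4.60-fold lower) and from the mean of the single mutants by -2.39 (5.24-fold lower). In order from the lowest difference, Kcnn4 was number 34 of 12527 genes against WT and number 12 against the single mutants. Lymphocytes and macrophages are also known to express Kcnn4. Of 17 leukocyte markers, 13 were at least 2-fold higher on DKO than on WT and 0 were lower. Ptprc, the pan-leukocyte antigen CD45, read 9.96 on DKO against 7.23 to 7.94 on the other arrays. Lymphocyte markers were mixed: Cd3g (1.28), Ms4a1 (1.01) and Jchain (2.91), a gene of antibody-secreting cells, were past 2-fold against WT. Cd3e (0.63), Cd4 (0.30), Cd8a (0.18) and Cd79a (0.36) were not. Several of these were near or under log2 6. Ms4a1 read 6.04 on DKO and 5.03 on WT, Cd3g 7.18 and 5.89, and Cd79a 5.28 and 4.92. The part of leukocytes in the Kcnn4 values was not tested.

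Kcnq1, the voltage-gated potassium channel that sustains cyclic AMP driven secretion, read 7.52 on DKO, 9.12 on Bmi1ΔIEC, 9.05 on Mel18ΔIEC and 9.001 on WT. Again only DKO stood apart, with the other 3 arrays within 0.12. The difference of DKO was -1.49 from WT (2.80-fold lower) and -1.57 from the mean of the single mutants (2.97-fold lower). Kcne3, the subunit that keeps Kcnq1 open at resting voltage in colonic crypts, read 9.65, 10.55, 10.15 and 10.58 on DKO, Bmi1ΔIEC, Mel18ΔIEC and WT. It too was lowest on DKO, by 0.93 against WT, which is short of 2-fold.

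Markers of the crypt, where NKCC1, CFTR and the secretory potassium channels are known to act, were lower on the same array. Of 17 crypt base and proliferating cell markers, 13 were lower in DKO by 2-fold or more against WT and 1 was higher (Olfm4), with a median of -1.49. Their summed intensity was 6588 on DKO and 13681 to 16354 on the other arrays. Olfm4 read 6.79 on DKO and 5.11 to 5.82 elsewhere, under the floor of log2 6. Lgr5, the marker of crypt base stem cells, read 6.29 on DKO and 7.73 to 7.98 elsewhere, and Mki67, a marker of cycling cells, 9.89 on DKO and 10.99 to 11.34 elsewhere. Their part in the values of Cftr, Slc12a2, Kcnn4 and Kcnq1 was not tested.

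In the guanylin pathway, the ligand gene Guca2a differed widely between the arrays while Guca2b and the receptor gene differed little. Guca2a read 11.99 on DKO, 11.31 on Bmi1ΔIEC, 11.32 on Mel18ΔIEC and 10.30 on WT, or linear intensities of 4071, 2535, 2554 and 1257. All 3 mutant arrays were above WT, the single mutants to the same extent and DKO more. The differences from WT were 1.01 (2.02-fold) for Bmi1ΔIEC, 1.02 (2.03-fold) for Mel18ΔIEC and 1.70 (3.24-fold) for DKO. These 3 comparisons share the WT array, so a low reading of Guca2a on that array would enter all of them. Larger absolute differences were found in 0.862% of genes for Bmi1ΔIEC, in 0.902% for Mel18ΔIEC and in 4.19% for DKO.

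Guca2a was number 17 from the highest of 12527 genes in Mel18ΔIEC against WT, number 66 in Bmi1ΔIEC and number 375 in DKO. It is therefore farther out among the genes of the single mutants, whose arrays differed little from WT, than among those of DKO. The Bmi1ΔIEC value ranged from 0.94 to 1.02 over the alternatives, so it did not stay past 2-fold, whereas the DKO value was 1.70 as deposited and 1.89 after cyclic loess. Guanylin is made by surface colonocytes and goblet cells. The summed intensity of 21 colonocyte markers was 72639 on DKO, 62264 on Bmi1ΔIEC, 70982 on Mel18ΔIEC and 68920 on WT, and neither that sum nor the goblet sum above has WT as its lowest array. Krt20, a keratin of the differentiated surface, was lowest on WT, at 12.23, 11.99, 11.91 and 11.71 in the same order, and Car1, a colonocyte carbonic anhydrase, was highest there, at 12.05, 12.47, 12.59 and 12.63. Their part in the Guca2a values was not tested.

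Guca2b, whose peptide uroguanylin is known mainly from the small bowel, read 9.69 on DKO, 9.81 on Bmi1ΔIEC, 9.89 on Mel18ΔIEC and 9.55 on WT. The whole range was 1.26-fold, the narrowest of the 9 genes, and DKO lay among the others. Of the 12 small bowel enterocyte markers, 9 were at least 2-fold higher on DKO than on WT and 1 was lower (Fabp6). Some of the 9, such as Enpep and Apoc3, were under log2 6 on every array but DKO. The part of small bowel cells in the Guca2b values was not tested. Gucy2c, the guanylin receptor, read 10.58 on DKO, 10.88 on Bmi1ΔIEC, 11.15 on Mel18ΔIEC and 11.02 on WT, a range of 1.48-fold with DKO lowest. Its difference between DKO and WT was -0.44 as deposited and -0.25 after cyclic loess. Prkg2, the cyclic GMP-dependent kinase that acts below the receptor, read 5.77 on DKO, 4.93 on Bmi1ΔIEC, 4.90 on Mel18ΔIEC and 4.65 on WT, under the floor of log2 6 on every array, so no fold is given for it.

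**Figure D2:**
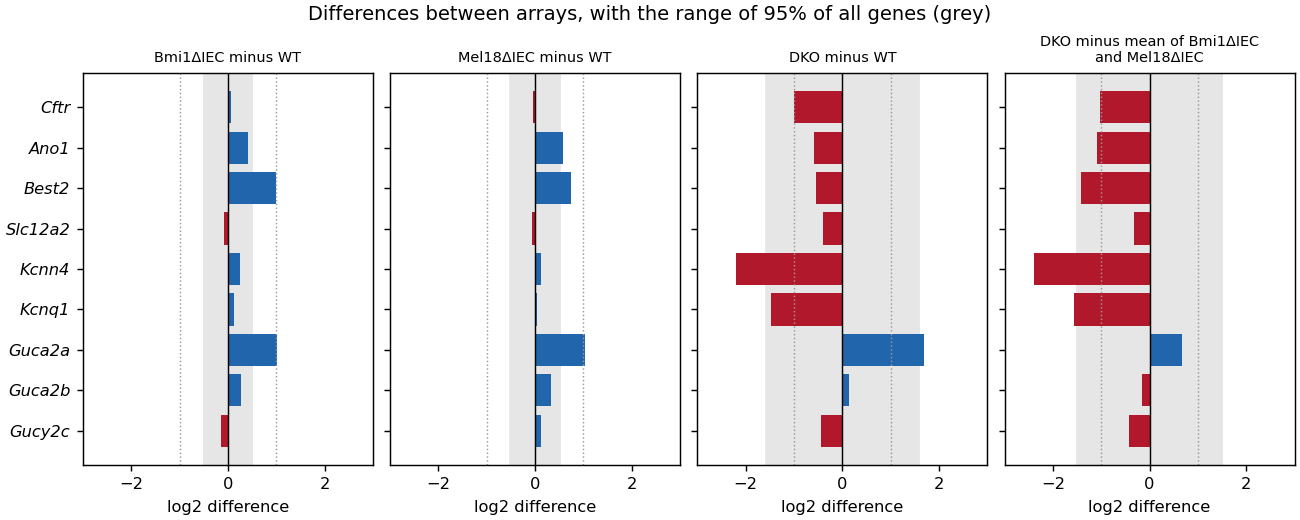
Log2 difference (horizontal axis) of each of the 9 genes in 4 comparisons between arrays, 1 bar per gene. The grey band spans the 95th percentile of the absolute difference over all analysed genes, and dotted lines mark 2-fold. Kcnn4 (-2.20) and Kcnq1 (-1.49) are farthest below 0 in DKO against WT, and Guca2a is above 0 in all 3 comparisons with WT.

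Counted over the 9 genes, 3 (Cftr, Kcnn4 and Kcnq1) were at least 2-fold lower and 1 (Guca2a) at least 2-fold higher in DKO than in WT. Over all 12527 analysed genes the shares were 8.19% lower and 7.33% higher. Among brighter genes the lower share was larger: of the 7476 genes that reached log2 8, 11.0% were lower in DKO than in WT. Against the mean of the single mutants, 5 of the 9 (Cftr, Kcnn4, Kcnq1, Ano1 and Best2) were at least 2-fold lower in DKO and 0 higher, with 6.51% of all genes lower and 7.33% higher, and 9.08% lower among genes that reached log2 8. Cyclic loess shifts that split, to 1046 genes higher and 555 lower from 918 and 816, and leaves 3 of the 9 past 2-fold. The median of the 9 differences was -0.55 against WT and -1.02 against the single mutants, where all analysed genes had medians of -0.05 and -0.07.

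Kcnn4 and Kcnq1 were below each of the other 3 arrays on DKO by 2-fold or more, as were 4.72% of all genes. DKO was the lowest array for 7 of the 9 genes and the highest for 1, Guca2a, where it was lowest for 46.0% and highest for 35.2% of all genes. The comparisons that hold DKO share its 1 array and give no support to each other.

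The single mutants differed much less from WT. In Bmi1ΔIEC, 1 of the 9 genes (Guca2a) was at least 2-fold higher and 0 lower, with 0.551% of all genes higher and 0.359% lower. In Mel18ΔIEC it was again Guca2a alone that was at least 2-fold higher and 0 were lower, with 0.144% of all genes higher and 0.814% lower. At 1.5-fold, Best2 joined Guca2a in both single mutants, where 2.02% of all genes were higher in Bmi1ΔIEC and 1.19% in Mel18ΔIEC. Between the single mutants the 9 differences ran from -0.25 to 0.26 for Mel18ΔIEC minus Bmi1ΔIEC, and 0 were past 2-fold in either direction, with 0.224% of all genes higher and 1.53% lower.

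The 4 arrays form a layout in which each deletion can be read with the partner gene present or deleted, which addresses whether losing both genes differs from the sum of the separate losses. The departure from additivity is DKO minus Bmi1ΔIEC minus Mel18ΔIEC plus WT on the log2 scale. It was -2.58 for Kcnn4, -2.29 for Best2, -1.65 for Kcnq1, -1.58 for Ano1 and -1.02 for Cftr, so 5 of the 9 genes were past 1 downward and 0 upward, with 6.43% of all genes past 1 downward and 8.19% upward. It was smaller for Guca2b (-0.46), Gucy2c (-0.43), Guca2a (-0.34) and Slc12a2 (-0.26). All analysed genes had a median departure of -0.08 and a median absolute departure of 0.403.

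These values took different routes. For Kcnn4, deleting Bmi1 gave 0.25 with Mel18 present and -2.33 with it deleted, and deleting Mel18 gave 0.13 with Bmi1 present and -2.46 with it deleted. For Kcnq1 the same 4 effects were 0.12, -1.53, 0.05 and -1.60, and for Cftr 0.07, -0.96, -0.05 and -1.07. In these genes the largest difference of a single mutant from WT was 0.25, for Kcnn4 in Bmi1ΔIEC, so the departure lies mostly on the DKO array.

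Best2 and Ano1 differed on both sides of WT. For Best2, deleting Bmi1 gave 0.99 with Mel18 present and -1.29 with it deleted, and deleting Mel18 gave 0.75 with Bmi1 present and -1.54 with it deleted. For Ano1 the same effects were 0.42, -1.16, 0.58 and -1.001. For Guca2a all 4 effects had the same sign: each deletion gave 1.01 or 1.02 with the partner present and 0.67 or 0.68 with it deleted. Each effect is a difference between a pair of arrays, and the effects share arrays.

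**Figure D3:**
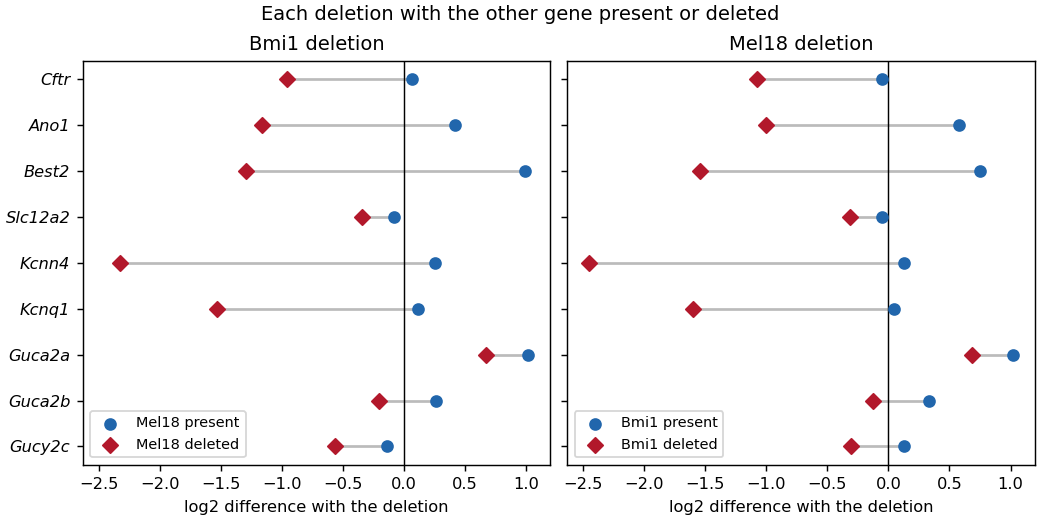
Log2 effect (horizontal axis) of deleting Bmi1 and of deleting Mel18 for each of the 9 genes, with the partner gene present or deleted, 1 pair of arrays per point. The Guca2a points lie between 0.67 and 1.02 in all 4 cases, while Best2 lies above 0 with the partner present (0.99 and 0.75) and below 0 with it deleted (-1.29 and -1.54).

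Most other genes of the secretory pathway lay within 2-fold between the arrays. Of 127 further genes in 5 lists, 85 were analysed, and against the single mutants 5 were at least 2-fold higher in DKO, 5 lower and 75 neither, which is 5.88% in each direction, with a median of 0.07. Against WT 4 were higher and 5 lower (4.71% and 5.88%), with a median of 0.10. Between Bmi1ΔIEC and WT 0 of the 85 were past 2-fold in either direction, and between Mel18ΔIEC and WT 1 was lower. It was Prkar2b, a regulatory subunit of protein kinase A, which was named after its values were seen. Prkar2b read 4.79 on Mel18ΔIEC and 6.33 on WT, the only array on which it passed the floor of log2 6. The shares of the 85 genes are near or below those of all analysed genes given above.

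Among 18 other chloride and bicarbonate channels and exchangers, 2 were at least 2-fold lower in DKO than in WT and 0 higher, and the median was 0.30. Slc26a3, the apical exchanger that absorbs chloride in return for bicarbonate and is mutated in congenital chloride diarrhoea, read 9.99 on DKO, 11.44 on Bmi1ΔIEC, 11.69 on Mel18ΔIEC and 11.59 on WT. Clcc1, an intracellular chloride channel, read 8.96, 10.00, 10.04 and 10.22 in the same order. The absorptive exchanger was thus low on DKO along with the secretory channels. Clca1, a secreted goblet cell protein once taken for a channel, read 12.91, 12.30, 12.22 and 12.56, highest on DKO, and Slc4a2, a basolateral anion exchanger, was 0.45 lower in DKO than in WT. Ano7, of the same family as Ano1, differed from WT by 0.88 in DKO.

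Of 11 potassium channel subunits, pump and cotransport genes, 1 was at least 2-fold lower in DKO than in WT and 0 higher, with a median of -0.01. It was Fxyd4, a regulator of the sodium pump, at 6.79 on DKO, 8.31 on Bmi1ΔIEC, 8.79 on Mel18ΔIEC and 8.21 on WT. Kcnma1, the large-conductance potassium channel, differed by 0.62 and the cotransporter relative Slc12a8 by -0.66. Against the single mutants this list's median was -0.12 as deposited and 0.06 after cyclic loess.

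Of 17 cyclic GMP and cyclic AMP signalling genes, 2 were at least 2-fold higher in DKO than in WT and 0 lower, with a median of 0.18. Both encode phosphodiesterases, which degrade cyclic AMP. Pde8a read 7.36 on DKO and 5.55 to 5.93 elsewhere, below the floor, so it was analysed only through its DKO value. Pde4b read 8.20 on DKO, 7.54 on Bmi1ΔIEC, 6.51 on Mel18ΔIEC and 6.60 on WT. Pde4b is also abundant in leukocytes, whose summed markers were highest on the same array. The part of leukocytes in the Pde4b values was not tested. Adcy4 and Adcy6, adenylate cyclases that make cyclic AMP, differed between DKO and WT by 0.80 and -0.57.

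Of 13 secretagogue receptors, 1 was at least 2-fold higher in DKO than in WT and 2 lower, with a median of 0.36. P2ry4, a receptor for extracellular nucleotides, read 8.18 on DKO and 6.18 to 6.76 elsewhere. Htr4, a serotonin receptor that raises cyclic AMP, read 6.61 on DKO and 8.11 to 8.31 elsewhere, and Npy1r, a receptor for peptide YY and neuropeptide Y, read 5.00 on DKO, below the floor, and 6.39 to 6.66 elsewhere. Ptger4, a prostaglandin E2 receptor, differed by 0.75. Receptors for secretory and antisecretory signals were thus found among the genes lower on DKO.

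Of 26 scaffolds and regulatory kinases of CFTR and NKCC1, 1 was at least 2-fold higher in DKO than in WT and 0 lower, with a median of 0.07. Dab2, a clathrin adaptor known to take part in CFTR endocytosis, read 8.98 on DKO, 7.26 on Bmi1ΔIEC, 6.31 on Mel18ΔIEC and 6.85 on WT. Dab2 is also known from macrophages and stroma. The 12 fibroblast and endothelial markers summed to 3903 on DKO and 1477 to 2428 elsewhere, and the leukocyte sum given above was highest on DKO too. The part of these cells in the Dab2 values was not tested. Rab27a, a secretory GTPase, was 0.89 higher in DKO than in WT and 1.22 higher than the mean of the single mutants, and the membrane fusion protein Snap23 and the recycling GTPase Rab11a differed from WT by 0.65 and 0.51. This list's median against the single mutants was 0.01, and -0.06 with median centring and -0.02 when the probe sets of a gene were averaged.

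**Figure D4:**
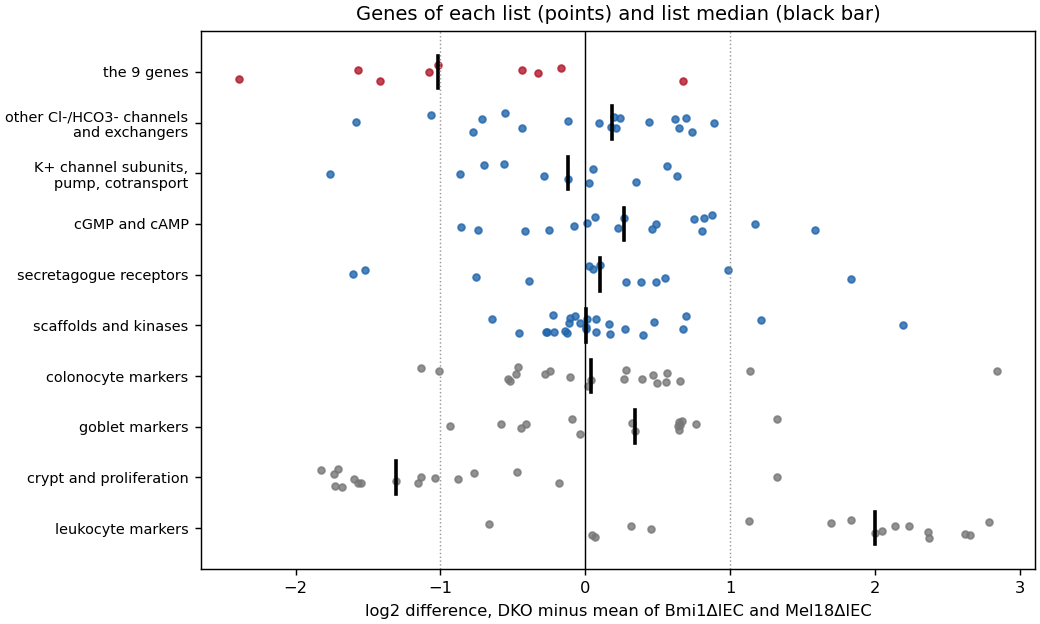
Log2 difference of DKO from the mean of the single mutants (horizontal axis), 1 point per analysed gene, for the 9 genes, the 5 pathway lists and 4 lists of cell markers, with a black bar at each median and dotted lines at 2-fold. The 9 genes have a median of -1.02 and the 85 further pathway genes 0.07, while the crypt and proliferation markers have a median of -1.31 and the leukocyte markers 2.00.

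The genes with the most similar pattern were found for the 6 of the 9 genes whose highest and lowest arrays were at least 2-fold apart, as the smallest Euclidean distance between log2 profiles over the 4 arrays, each centred on its own mean. Cftr had a common pattern, with 977 genes within a distance of 0.3, and its nearest were Nle1 (0.0421), Rps15a (0.0469) and Arv1 (0.0488). Kcnq1 had 166 genes within 0.3, led by Ppp1r1b (0.0619), Lrig3 (0.0704) and Idh2 (0.0762), and Ano1 had 148, led by Ppargc1a (0.0543), Eppk1 (0.0888) and Sema3b (0.105). These 3 patterns were thus shared widely over the array.

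The other patterns were rarer. Best2 had 5 genes within 0.3, led by Sult1a1 (0.0683), Pcolce2 (0.165) and Gm15401 (0.179). Kcnn4 had 2, Gstm6 and Cyp2c68 (both 0.277), followed by Mecr (0.312), and those 2 read 4.73 and 4.72 on DKO, near background, unlike Kcnn4 at 8.05. Guca2a had 2, Iigp1 (0.274) and Sult1d1 (0.278), followed by Msln (0.302). With 4 arrays, a profile holds few values, and nearness over them says nothing of shared function or control.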

How the data were processed

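RNA from colonic epithelial cells was measured on 4 arrays, 1 per genotype. The deposited values are linear probe set intensities. For these the submitters' processing notes name RMA and Affymetrix Expression Console, without versions. RMA subtracts background, gives all arrays the same quantiles and condenses each set's probes to a value, which would remove a shift common to most genes. From these, log2 was taken of the deposited intensities. Of 35556 probe sets, 21797 carried 1 gene symbol, 1613 several and 12146 none in the platform annotation, and 21698 were found in the RefSeq gene table by gene identifier, with 0 symbols updated. The brightest probe set stood for each of the 999 genes with several, and genes reaching log2 6 on their highest array were analysed. Differences were counted at 2-fold.

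With 1 array per genotype no test is possible, and their number limits precision. Members and lists were chosen with earlier results of these data known. Named were all 9 members, up to 4 genes per pathway list with the largest difference of DKO from the single mutants, fixed partners (Kcne3, Prkg2, Slc26a3, Clca1), defining markers, and the 3 nearest patterns per member. Alternatives were cyclic loess, median centring, log2 of intensity plus 32, averaged probe sets per gene, floors of none or 8, and a 1.5-fold threshold. Python 3.11.15, numpy 2.4.6, pandas 2.3.3, R 4.3.3 and limma 3.58.1 were used, and the counting was tested on simulated data.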

Additional observations from a re-analysis of the deposited data

Results flagged for a closer look

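Best2 differed in opposite directions on either side of WT. Deleting Bmi1 gave a log2 difference of 0.99 with Mel18 present and -1.29 with Mel18 deleted. Deleting Mel18 gave 0.75 with Bmi1 present and -1.54 with Bmi1 deleted. Each value rests on a pair of arrays, and whether the effects differ was not tested.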

How the results depend on the processing

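Over the alternatives, 346 of 380 values stayed near the main value (counts within 1.5 times, differences within 0.191, the scaled spread of all genes between Bmi1ΔIEC and WT), 34 moved, and 0 differences of 2-fold or more changed sign. Differences and list medians near 0 did change sign in places, as given below for single genes and in the results for 2 pathway lists. Among the counts over all genes, a 1.5-fold threshold gave 1794 higher and 2524 lower in DKO against WT, 253 and 192 in Bmi1ΔIEC, 149 and 294 in Mel18ΔIEC, 1757 and 2358 in DKO against the single mutants, and 155 and 408 in Mel18ΔIEC against Bmi1ΔIEC. Adding 32 before log2 gave 40 higher in Bmi1ΔIEC and 8 higher and 62 lower in Mel18ΔIEC, both against WT, 542 lower in DKO against the single mutants, and 14 higher in Mel18ΔIEC against Bmi1ΔIEC. Median centring gave 44 higher and 52 lower in Bmi1ΔIEC against WT, where the deposited values gave 69 and 45, and a floor of log2 8 left 8 higher in Mel18ΔIEC. Among the 9 genes, those higher in Bmi1ΔIEC than in WT numbered 2 at 1.5-fold and under cyclic loess, and 0 under median centring and with 32 added. Those higher in Mel18ΔIEC numbered 2 at 1.5-fold. In DKO against the single mutants, cyclic loess left 3 lower and 1.5-fold gave 1 higher. The cause of these moves was not tested, beyond the lower threshold and the fewer genes tested by construction.

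Of 54 differences of single genes, 48 kept their side of 2-fold and 49 their sign over 4 alternatives. The 6 that crossed 2-fold were those of Cftr (DKO against WT, against the single mutants, and the departure from additivity, -1.07 to -0.87), Ano1 in DKO against the single mutants, and Best2 (0.92 to 1.00) and Guca2a in Bmi1ΔIEC against WT. The 5 that changed sign were those of Cftr between Bmi1ΔIEC and WT (-0.01 to 0.07), Guca2b in DKO against the single mutants (-0.23 to 0.01), and Cftr, Kcnq1 and Guca2a between the single mutants. Cyclic loess also moved differences of Slc12a2, Gucy2c and Guca2a that involve DKO, and the departure of Ano1, to -1.39. Median centring moved the median of all genes between the single mutants from 0.03 to 0.15. No paired analysis was possible because each genotype had 1 array.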
